A study of Mus musculus with 30 samples.

Results

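The genes described here are *Nodal*, *Tdgf1*, *Lefty1*, *Lefty2*, *T*, *Eomes*, *Mesp1* and *Gsc*, which belong to the primitive streak and to the Nodal signalling pathway. They were chosen by name from a list of 10 genes, of which 8 had a row in the table of 14685 genes, and all 8 passed the filter on low values. *Mixl1* and *Foxa2*, also on the list, were not analysed here. The choice was made with their high values in Sp3-/- Flk1+ cells already known, *Lefty2* and *Gsc* being the clearest, so the difference between Sp3-/- and WT Flk1+ cells is given as a description without a test.

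RNA was sequenced from 30 samples of mouse E14 embryonic stem cells (ESC) and their progeny in culture, as 15 groups of 2 replicates. The populations were ESC grown on feeder cells, Flk1+ cells purified with magnetic beads from embryoid bodies, and 3 populations sorted at day 2 of blast culture of Flk1+ cells. These were early and late hemogenic endothelium (HE1, KIT+ CD41- Tie2+, and HE2, KIT+ CD41+ Tie2+) and progenitor cells (KIT+ CD41+ Tie2-). The genotypes were WT, Sp1ΔDBD/ΔDBD, in which the DNA-binding domain of Sp1 is deleted and a truncated protein is made, and Sp3-/-, a knockout of Sp3. Each mutant genotype was an ESC line, so the mutation and other properties of a line cannot be told apart. By the authors' methods the time of embryoid body culture depended on the cell line, and no time is given here for each sample. Genotype and time of harvest of the Flk1+ cells therefore cannot be told apart either. Values are FPKM, which are fragments scaled to transcript length and library size, quantile normalised by the authors, and no read counts or depths come with them. *Sp3* had group means of 3.78 to 7.45 FPKM in Sp3-/- and 26.1 to 46.7 FPKM in WT cells, and *Sp1* had 17.6 to 38.3 FPKM in Sp1ΔDBD/ΔDBD and 25.2 to 49.8 FPKM in WT cells. *Kdr*, which encodes Flk1, lay between 165 and 257 FPKM in the 6 Flk1+ samples and at 0.297 and 0.322 FPKM in WT ESC.

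Nodal is a secreted ligand of the TGF-beta family that signals through activin receptors, the coreceptor Tdgf1 (Cripto), and the Smad proteins with Foxh1. Among its targets are *Nodal* itself and *Lefty1* and *Lefty2*, which encode secreted inhibitors of the pathway. In the gastrulating embryo the pathway helps to set up the primitive streak, where *T* (Brachyury) and *Eomes* mark cells entering the streak, *Mesp1* marks nascent mesoderm, and *Gsc* marks the anterior streak. Flk1+ mesoderm, from which blood and endothelium arise, forms from cells that have passed through the streak.

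In the GENCODE M21 annotation (GRCm38), *Nodal* lies on chromosome 10 (61417972 to 61425338, plus strand), *Tdgf1* on chromosome 9 (110939603 to 110946158, minus strand), *T* on chromosome 17 (8434423 to 8442496, plus strand) and *Eomes* on chromosome 9 (118478212 to 118486132, plus strand). *Mesp1* is on chromosome 7 (79792241 to 79793788, minus strand) and *Gsc* on chromosome 12 (104471209 to 104473330, minus strand). *Lefty2* (180893108 to 180899103) and *Lefty1* (180935022 to 180938400) are neighbours on the plus strand of chromosome 1. Of the stretches of 75 bases in the longest *Lefty1* transcript, 11.2% occurred without a mismatch in that of *Lefty2*, and 7.21% the other way, so that some fragments could be assigned to either gene and their separate values are uncertain to that extent.

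Sp1 and Sp3 bind GC boxes, and the 250 bases before the RefSeq start of each gene (GRCm38.p6) were searched for GGGCGG and its complement CCGCCC. Windows of 6 of the 8 genes were at hand. *T* and *Gsc* held 2 GC boxes each, *Tdgf1* held 1, and *Nodal*, *Eomes* and *Mesp1* held 0. Of 32851 windows of the same length, 32.7% held at least 1 GC box and 16.7% at least 2. The GT box CACCC or its complement GGGTG was found in the window of *T*, at 2 places that do not overlap the GC boxes, and in 52.0% of all windows. The windows with GC boxes are shown because, among the windows searched, they are those where the letters bound by both factors occur, with the GC box in capitals. Sequence outside these windows was not searched. For *Mesp1* GENCODE places the start further upstream, at 79793788. Most of its window (chr7:79793591-79793840, minus strand) thus lies within the annotated gene. The *T* window is chr17:8434173-8434422 on the plus strand, with boxes beginning 222 and 73 bases before the start. The *Tdgf1* window is chr9:110946159-110946408 on the minus strand, with a box 6 bases before the start. For *Gsc*, where GENCODE places the start further upstream, only the 30 bases around each box are shown, chr12:104473298-104473327 for the first and chr12:104473270-104473299 for the second, both on the minus strand.
T: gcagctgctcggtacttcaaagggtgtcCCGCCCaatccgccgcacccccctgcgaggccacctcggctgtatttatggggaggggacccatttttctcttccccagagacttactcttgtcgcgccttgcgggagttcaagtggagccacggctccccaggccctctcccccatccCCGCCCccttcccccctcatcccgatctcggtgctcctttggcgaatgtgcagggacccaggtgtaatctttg
Tdgf1: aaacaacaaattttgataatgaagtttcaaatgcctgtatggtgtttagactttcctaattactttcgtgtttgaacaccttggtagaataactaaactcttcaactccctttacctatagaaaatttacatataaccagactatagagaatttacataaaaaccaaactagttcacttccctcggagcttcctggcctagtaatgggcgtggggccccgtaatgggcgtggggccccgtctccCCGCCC
Gsc first box: gaggggaggagaGGGCGGgaggagggagtt
Gsc second box: ttcggacgcaggGGGCGGggaggggcgcga
These matches are letters only, and binding was not examined here.

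In WT cells the genes fell into those on in ESC and those on in Flk1+ cells. The signalling genes led in ESC. *Tdgf1* had 275 and 344 FPKM in the WT ESC samples, *Lefty2* had 70.9 and 60.3, *Lefty1* had 55.4 and 39.6, and *Nodal* had 23.8 and 26.8. These levels of different genes can be set side by side because FPKM is given per length of transcript. The ranges of neighbouring genes in this order did not overlap. The transcription factors were low in the same samples. *T* had 1.91 and 0.83 FPKM and *Eomes* 0.77 and 0.80, while *Mesp1* and *Gsc* were at or below 0.07 FPKM.

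From WT ESC to WT Flk1+ cells all 8 genes passed the test, 4 upwards and 4 downwards, where 27.4% of the 14525 genes tested rose and 24.7% fell (limma on log2(FPKM + 0.1), Benjamini-Hochberg adjusted p under 0.05). The WT Flk1+ samples are also those against which the genes were chosen. *Mesp1* rose to 51.7 and 39.1 FPKM, *Eomes* to 46.6 and 41.9, and *T* to 41.9 and 31.6. These 3 genes were next to each other in level, and the ranges of *Eomes* and *T* overlapped that of *Mesp1*. The log2 fold change was 4.74 (standard error 0.577, limma adjusted p = 1.21e-06) for *T* and 5.64 (standard error 0.452, limma adjusted p = 4.54e-09) for *Eomes*. *Mesp1* was at or near 0 in ESC, so no fold is given (limma adjusted p = 1.46e-13). *Gsc* was listed at 0 in both WT ESC samples and had 1.19 and 0.823 FPKM in WT Flk1+ cells (limma adjusted p = 3.78e-05), a low level beside the other factors.

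The signalling genes fell over the same step. *Tdgf1* dropped the least, to 111 and 82.7 FPKM, and it was still the highest of the 8 genes in WT Flk1+ cells. On the log2 scale it fell by 1.68 (standard error 0.469, limma adjusted p = 0.0054). *Lefty2* fell to 1.81 and 0.778 FPKM, a log2 fold change of -5.66 (limma adjusted p = 3.59e-08), and *Nodal* to 0.633 and 0.49, a log2 fold change of -5.27 (limma adjusted p = 4.45e-09). *Lefty1* was listed at 0.0244 FPKM and 0. The call of *Tdgf1* was lost without WT Flk1+ replicate 2 (limma adjusted p = 0.0532).

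At the next step, from WT Flk1+ cells to WT HE1, 6 of the 8 genes fell, where 29.5% of all genes fell (limma). These were *Tdgf1*, *Lefty2*, *T*, *Eomes*, *Mesp1* and *Gsc*. *Eomes* fell by 6.38 on the log2 scale to 0.494 and 0.374 FPKM (limma adjusted p = 1.57e-09). *Nodal* had 0.637 and 0.473 FPKM in WT HE1, which overlapped its level in WT Flk1+ cells (limma adjusted p = 0.993). From HE1 to HE2, 0 of 8 genes passed the test (0 at an unadjusted p under 0.05), where 21.9% of all genes did, and from HE2 to progenitor cells 0 of 8 passed (1, *Nodal*, at an unadjusted p under 0.05), where 13.2% of all genes did. Across the 18 HE1, HE2 and progenitor samples of all genotypes, *Nodal* lay between 0.207 and 1.23 FPKM and *Eomes* between 0.119 and 1.23 FPKM. None of the other 6 genes exceeded 0.432 FPKM in these samples.

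**Figure D1:**
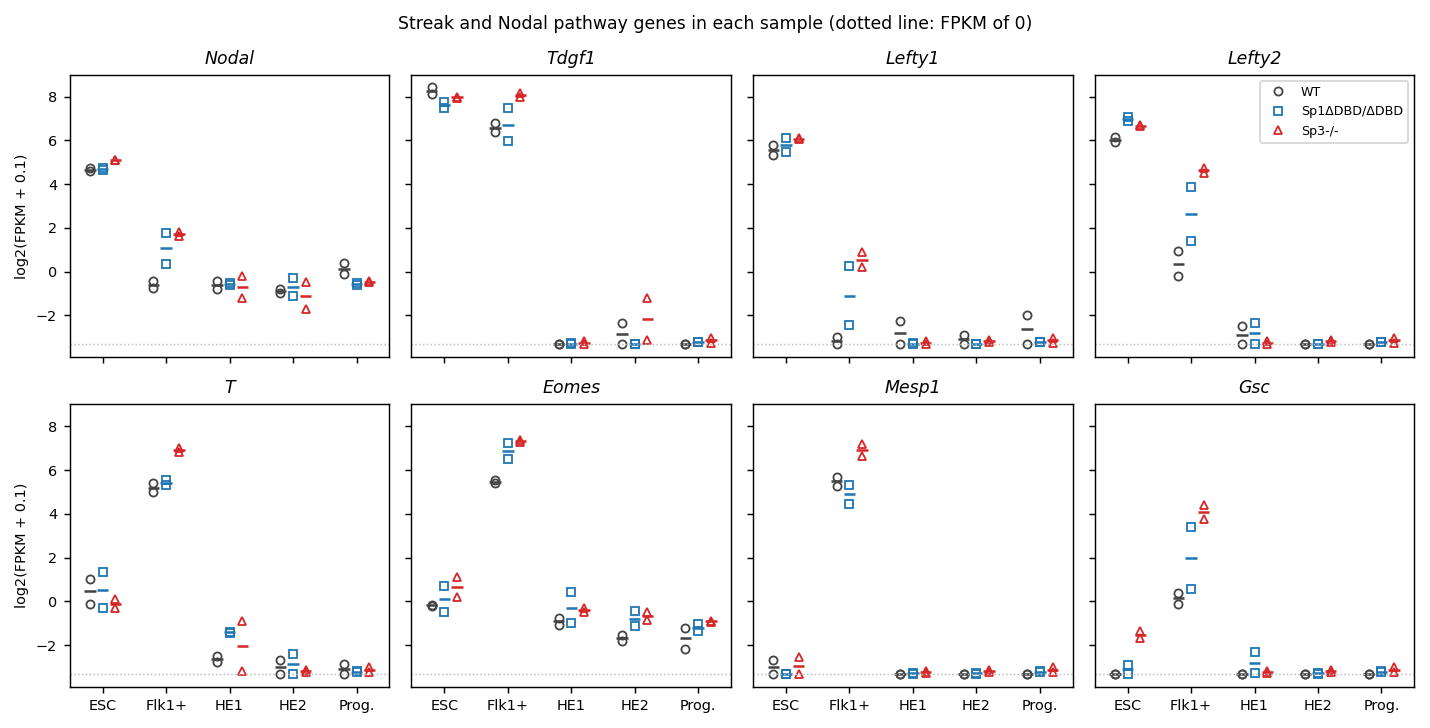
Level of each of the 8 genes in all 30 samples, as log2(FPKM + 0.1) on the vertical axis, by population on the horizontal axis. Open circles are WT, squares Sp1ΔDBD/ΔDBD and triangles Sp3-/- samples, short lines are group means (n = 2), and the dotted line is an FPKM of 0. *Nodal* and the *Lefty* genes are highest in ESC, *T*, *Eomes*, *Mesp1* and *Gsc* in Flk1+ cells, *Tdgf1* in both, and 6 of the 8 genes do not exceed 0.432 FPKM from HE1 on.

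In Sp3-/- Flk1+ cells all 8 genes were higher than in WT Flk1+ cells, with both Sp3-/- samples above both WT samples and a fold change above 2 on the log2(FPKM + 0.1) scale. Of all genes tested, 4.65% met these criteria upwards and 4.66% downwards. This difference chose the genes, so it was not tested and nothing is read from the count. In bulk RNA, more cells that express a gene and more RNA per cell cannot be told apart.

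The 2 inhibitors differed in level. *Lefty2* had 23.0 and 27.0 FPKM in Sp3-/- and 1.81 and 0.778 FPKM in WT Flk1+ cells, a ratio of means of 19.3. *Lefty1* had 1.76 and 1.05 FPKM in Sp3-/- cells and was at or near 0 in WT, so no ratio is given. Both inhibitors were listed above WT, and *Lefty2* stood 13.1 and 25.7 times above *Lefty1* in the Sp3-/- Flk1+ samples, against 1.28 to 3.11 times in the 6 ESC samples. With *Lefty1* so far below *Lefty2*, its own fragments and fragments of *Lefty2* assigned to it cannot be told apart in these Flk1+ samples. The ligand *Nodal* had 3.42 and 3.0 FPKM in Sp3-/- and 0.633 and 0.49 FPKM in WT Flk1+ cells, a ratio of 5.71. The coreceptor *Tdgf1* had 285 and 256 FPKM against 111 and 82.7 in WT, a ratio of 2.79. The ligand remained low in absolute level in every Flk1+ sample, whereas its coreceptor was abundant in all of them.

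Among the transcription factors *Gsc* stood out. It had 20.9 and 13.5 FPKM in Sp3-/- and 1.19 and 0.823 FPKM in WT Flk1+ cells, a ratio of 17.0. *Eomes* had 166 and 154 FPKM against 46.6 and 41.9 (ratio 3.62), and *T* had 128 and 112 against 41.9 and 31.6 (ratio 3.27). *Mesp1* had 101 and 146 FPKM against 51.7 and 39.1 (ratio 2.73). The Sp3-/- samples thus lay above WT both for factors that were already abundant in WT Flk1+ cells and for *Gsc*, which was near 1 FPKM there. When GC content and transcript length were corrected for, the log2 fold change of *Mesp1* was 0.85 instead of 1.44, and that of *Gsc* 3.07 instead of 3.95. With a pseudocount of 1 in place of 0.1, that of *Lefty1*, which was at or near 0 in WT, was 1.23 instead of 3.71. That of *Nodal* was 1.43 instead of 2.33. The count of 8 genes above a fold change of 2 held with that pseudocount and when any of the 4 samples was left out, but with the correction for GC content and length *Mesp1* was below it.

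**Figure D2:**
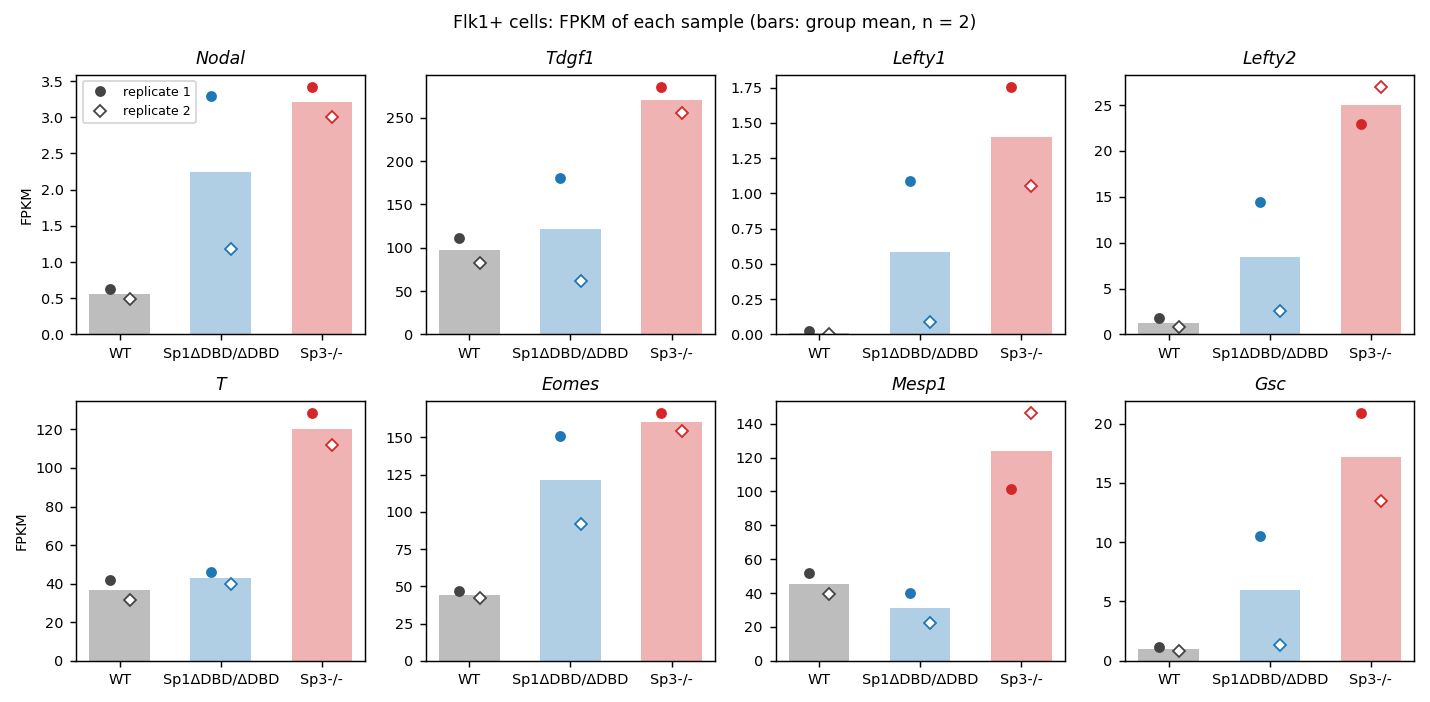
FPKM of each gene in the 6 Flk1+ samples, on a linear vertical axis from 0 that differs between panels, by genotype on the horizontal axis. Bars are group means (n = 2), filled circles replicate 1 and open diamonds replicate 2. Both Sp3-/- samples lie above both WT samples in each panel, and the Sp1ΔDBD/ΔDBD replicates lie apart for *Gsc*, *Lefty1*, *Lefty2*, *Nodal* and *Tdgf1*.

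Set against the ESC mean of the same genotype, the signalling genes kept a larger part of their level in Sp3-/- than in WT Flk1+ cells. *Lefty2* was at 22.5% and 26.4% of its ESC level in the Sp3-/- Flk1+ samples, at 11.3% and 1.98% in replicates 1 and 2 of the Sp1ΔDBD/ΔDBD cells, and at 2.76% and 1.19% in WT. For *Nodal* these shares were 10.02% and 8.80% in Sp3-/-, 12.9% and 4.64% in Sp1ΔDBD/ΔDBD and 2.50% and 1.94% in WT cells. For *Tdgf1* they were 114% and 102%, 90.5% and 31.1%, and 35.9% and 26.7%. In Sp1ΔDBD/ΔDBD cells replicate 2 thus lay within the WT range for *Lefty2* and *Tdgf1*, while replicate 1 exceeded both Sp3-/- samples for *Nodal*. *Lefty1* in Sp3-/- Flk1+ cells was at 2.60% and 1.56% of its ESC level. These shares use the values on which the genes were chosen and carry no test.

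The cells of the Sp3-/- Flk1+ samples also differed in markers of other states. The summed level of 6 pluripotency genes was 206 and 195 FPKM in Sp3-/- and 58.1 and 47.0 FPKM in WT Flk1+ samples. Of these 6 genes, 3 lay above WT in both Sp3-/- samples and 2 below (share of all genes not counted). *Dppa5a* had 110 and 96.4 FPKM against 11.8 and 11.5 in WT Flk1+ cells, and *Pou5f1*, which encodes Oct4, 82.1 and 83.9 against 27.4 and 19.6. *Nanog* was below WT (8.72 and 9.35 against 11.2 and 10.7 FPKM), as was *Klf4*. *Zfp42* was above WT, with 2.61 and 2.59 FPKM against 1.35 and 1.07 in WT Flk1+ cells, and had 512 and 563 FPKM in WT ESC. *Esrrb* overlapped WT, with 0.482 and 0.78 FPKM against 1.01 and 0.469, and had 80.0 and 77.8 FPKM in WT ESC.

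Of 5 markers of Flk1+ mesoderm, 2 were above WT in both Sp3-/- samples and 3 were below (share of all genes not counted). Those above were *Etv2*, a regulator of blood and endothelial fate, and *Pdgfra*, a receptor of early mesoderm. *Hand1*, a factor of extraembryonic and lateral mesoderm, was lowest relative to WT, with 45.3 and 56.3 FPKM against 153 and 168. The summed level of 5 definitive endoderm genes was 81.5 and 87.2 FPKM in Sp3-/- and 58.8 and 56.5 in WT Flk1+ samples, with all 5 above WT (share of all genes not counted). *Cxcr4* made up most of this sum, with 55.7 and 60.2 FPKM in Sp3-/- and 46.1 and 48.2 in WT. In WT ESC the sum was 528 and 307 FPKM, nearly all of it *Trh*, so it is no measure of endoderm alone. The 2 with a fold change above 2 were *Cer1* and *Trh*, which encodes thyrotropin-releasing hormone. *Trh* had 14.7 and 16.6 FPKM against 7.06 and 4.06 in WT Flk1+ cells, and 526 and 305 FPKM in WT ESC. *Sox17*, a factor of endoderm formation, had 1.23 and 0.808 FPKM against 0.692 and 0.651 in WT. Of the neural ectoderm genes 2 were measured, with a summed level of 15.4 and 11.2 FPKM in Sp3-/- and 7.20 and 5.81 in WT Flk1+ samples, and *Pax6*, the more specific of these, was at 0.107 FPKM or below. Of 3 feeder genes measured, *Col3a1* and *Postn* were listed at 0 in the WT and Sp3-/- Flk1+ samples. *Thy1*, the other, had 0.89 and 0.958 FPKM in Sp3-/- against 0.941 and 0.84 FPKM in WT Flk1+ cells. The summed level of 5 hemogenic endothelium genes was 19.4 and 19.8 FPKM in Sp3-/- and 14.6 and 18.7 FPKM in WT Flk1+ samples. Of these 5, 3 lay above both WT samples, *Tek* and *Cdh5* by over 2-fold, and 2 below. That of 5 blood progenitor genes, *Kit* being in both lists, was 9.88 and 11.4 against 13.4 and 15.6 FPKM. Of these, 0 lay above and 3 below, *Gata1* by over 2-fold (shares of all genes not counted). The part of these cell states in the levels of the 8 genes was not tested. The genes in this and the previous paragraph were picked out of their lists after their values were seen.

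The other genes of the pathway, 19 of 20 listed with values, did not move as a block in Sp3-/- Flk1+ cells. By the same criteria 3 were higher and 1 lower, and the median log2 fold change over the 19 genes was -0.24, beside 0.00 over all genes tested. *Cer1*, a secreted Nodal and BMP inhibitor, had 1.25 and 2.22 FPKM against 0.302 and 0 in WT. *Pmepa1*, a feedback inhibitor of Smad signalling, had 2.89 and 3.69 FPKM against 0.725 and 0.798, and the ligand gene *Gdf1* 3.48 and 5.20 against 3.20 and 0.309. The gene that was lower was *Cfc1* (Cryptic), a coreceptor related to *Tdgf1*, with 16.7 and 31.3 FPKM against 99.4 and 108. Its level and that of *Tdgf1* thus lay on opposite sides of WT. Receptor and Smad genes differed from WT by less than 2-fold. *Smad2*, *Smad3*, *Smad4*, *Smad7*, *Acvr2a* and *Acvr2b* lay below both WT samples, at 0.731 to 0.847 times the WT mean, and *Acvr1b* above both, at 1.13 times. *Foxh1* overlapped WT, with 126 and 139 FPKM against 130 and 125. These genes, too, were named after their values were seen.

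Of 17 measured genes from a list of 18 other streak, mesoderm and endoderm genes, 16 lay above WT in both Sp3-/- Flk1+ samples, 8 of them by a fold change above 2, and 0 lay below. Of all genes tested, 4.65% lay above WT without overlap by such a fold change. The share without overlap whatever the fold was not counted, so the 16 have no background beside them. *Hhex*, *Sox17* and *Cxcr4* are also in the definitive endoderm list, so the 2 counts are not separate. The median log2 fold change was 0.97, beside 0.00 over all genes tested. Among the 8 were *Sp5*, a Wnt target that encodes an Sp family factor (25.1 and 20.5 FPKM against 2.72 and 1.90), *Fgf8*, a streak ligand (33.6 and 23.6 against 7.03 and 5.13), and *Snai1*, which acts in epithelial to mesenchymal transition (42.4 and 59.3 against 14.8 and 13.1). *Otx2*, a factor of the epiblast and anterior embryo, had 20.9 and 23.1 FPKM against 3.53 and 1.92, and *Lhx1*, which is active in the anterior streak, 48.2 and 48.5 against 11.9 and 9.39. The endoderm and later mesoderm factors *Gata4* and *Gata6* were nearer to WT. *Gata4* had 47.5 and 62.8 FPKM against 38.5 and 39.5, and *Gata6* 35.4 and 29.5 against 21.1 and 22.2. These examples were also chosen after their values were seen, and the list was drawn up with results of these data known, so its count is no independent evidence.

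**Figure D3:**
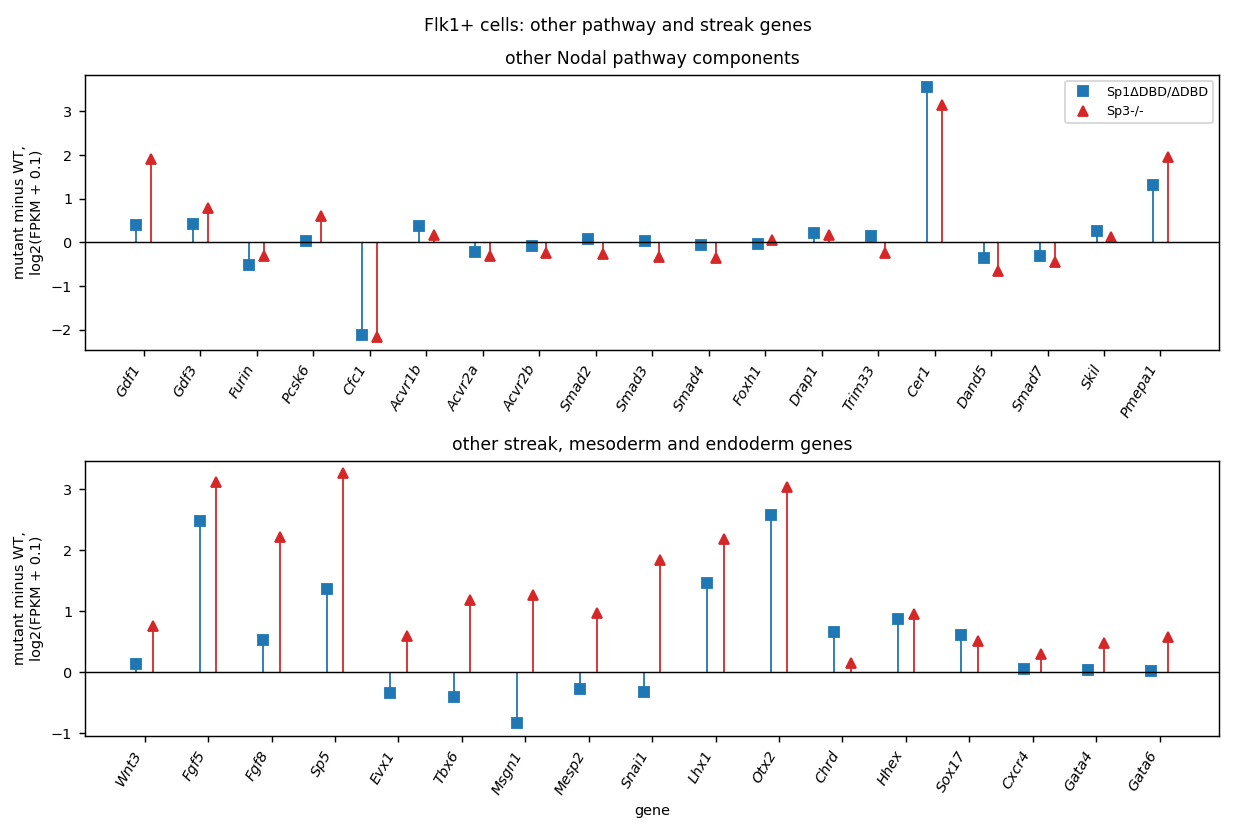
Difference of each mutant from WT Flk1+ cells for 19 other Nodal pathway genes (upper panel) and 17 other streak, mesoderm and endoderm genes (lower panel), on the log2(FPKM + 0.1) scale, with genes on the horizontal axis. Blue squares are Sp1ΔDBD/ΔDBD and red triangles Sp3-/- means (n = 2 per group), and both are set against the same 2 WT samples. *Cer1* lies above and *Cfc1* below WT in both mutants, the Smad genes lie closer to 0, and *Fgf5*, *Sp5*, *Lhx1* and *Otx2* are the highest in the lower panel in the Sp1ΔDBD/ΔDBD cells.

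Sp1ΔDBD/ΔDBD Flk1+ cells were compared with the same WT samples. The genes were chosen for values above these WT samples, so the test and the count of genes that rose are not free of that choice. The same holds for the difference of this effect from that in ESC, given below. Of the 8 genes, 3 rose, *Nodal*, *Lefty1* and *Lefty2*, and 0 fell, where 2.92% of all genes rose and 2.62% fell (limma). *Lefty2* had 14.4 and 2.51 FPKM against 1.81 and 0.778 in WT, which is 2.25 higher on the log2 scale (standard error 0.527, limma adjusted p = 0.0148). *Nodal* had 3.29 and 1.19 FPKM against 0.633 and 0.49, which is 1.67 higher on that scale (standard error 0.421, limma adjusted p = 0.0233). *Lefty1* had 1.09 and 0.085 FPKM and was at or near 0 in WT (limma adjusted p = 0.0462). Here, too, fragments of *Lefty2* assigned to *Lefty1* cannot be told apart from its own, so its call is not separate from that of *Lefty2*. For all 3 genes replicate 1 was well above replicate 2. Replicate 2 was itself above both WT samples for *Nodal* and *Lefty2*. For *Lefty1* it was at or near 0, as both WT samples were.

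Also above both WT samples, without passing the test, were *Eomes*, with 151 and 91.9 FPKM against 46.6 and 41.9 (limma adjusted p = 0.0771), and *Gsc*, with 10.5 and 1.36 FPKM against 1.19 and 0.823 (limma adjusted p = 0.0595). The samples of *T*, *Tdgf1* and *Mesp1* overlapped those of WT. *T* had 46.1 and 39.6 FPKM, *Tdgf1* 180 and 62.1, and *Mesp1* 39.8 and 22.0. In each of the 8 genes replicate 1 was the higher of the pair, as it was in WT Flk1+ cells. Whether the Sp1ΔDBD/ΔDBD and Sp3-/- Flk1+ cells differed from each other was not tested.

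The calls rested on replicate 1 of the Sp1ΔDBD/ΔDBD Flk1+ cells. Without it 0 of the 8 genes passed the test, with a log2 fold change of 1.01 for *Lefty2* (limma adjusted p = 0.269) and 0.97 for *Nodal* (limma adjusted p = 0.323). Without replicate 2, *Gsc* passed as well, with a log2 fold change of 3.28 (limma adjusted p = 9.96e-05). In those fits the remaining sample is assumed to vary like the other groups. Without WT replicate 2, 0 of the 8 genes passed, and without WT replicate 1 the call of *Lefty2* was the 1 that held. With each population fitted alone 0 of the 8 genes passed, with a limma adjusted p of 0.217 for *Lefty2* and 0.133 for *Nodal*. With a pseudocount of 1 the call of *Lefty1* was lost (limma adjusted p = 0.17), and *Eomes* (limma adjusted p = 0.00126) and *Gsc* (limma adjusted p = 0.0389) passed. *Gsc* also passed when GC content and length were corrected for (limma adjusted p = 0.0189). The summed level of 5 hemogenic endothelium genes was 24.6 FPKM in replicate 1 and 48.6 FPKM in replicate 2 of the Sp1ΔDBD/ΔDBD Flk1+ cells, against 14.6 and 18.7 FPKM in WT, and 3 of the 5 genes rose (limma). That of 5 definitive endoderm genes was 90.6 and 74.9 FPKM in replicates 1 and 2, against 58.8 and 56.5 FPKM in WT, with 4 of the 5 genes above both WT samples (share of all genes not counted) and 2 called higher (limma). That of 6 pluripotency genes was 61.4 and 25.5 FPKM, against 58.1 and 47.0 FPKM in WT. Of these, 0 of 6 lay above both WT samples (share of all genes not counted) and 1 was called lower (limma). The endoderm and pluripotency sums were thus higher in replicate 1, as the 8 genes were, and the hemogenic endothelium sum in replicate 2. The endoderm genes did not move together between these replicates. *Trh* (27.8 and 16.6 FPKM), *Cxcr4* (51.5 and 46.8) and *Cer1* (4.05 and 1.25) were higher in replicate 1. *Sox17* (0.979 and 1.19) and *Hhex* (6.18 and 9.06) were higher in replicate 2, and all 5 were named after their values were seen. The part of these differences in the result was not tested.

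Of the other pathway genes, *Cer1* rose and *Cfc1* fell in Sp1ΔDBD/ΔDBD Flk1+ cells. *Cer1* had 4.05 and 1.25 FPKM against 0.302 and 0 in WT (limma adjusted p = 0.00047). It exceeded 1 FPKM only in Flk1+ samples of the mutants, so it passed the filter on low values only through them. Its call is therefore not free of that filter, and nothing is concluded from it. *Cfc1* had 15.1 and 37.1 FPKM against 99.4 and 108, a log2 fold change of -2.12 (limma adjusted p = 0.00203). Of the other streak, mesoderm and endoderm genes 3 rose, *Otx2* (26.2 and 9.82 FPKM against 3.53 and 1.92, limma adjusted p = 0.000635), *Fgf5*, a ligand of the epiblast (3.79 and 0.984 against 0.445 and 0.149, limma adjusted p = 0.00802), and *Lhx1* (48.9 and 17.7 against 11.9 and 9.39, limma adjusted p = 0.0466), the last of them named after its value was seen. Without replicate 1 the calls of *Cer1* (limma adjusted p = 0.0165) and *Otx2* (limma adjusted p = 0.0224) held and those of *Cfc1*, *Fgf5* and *Lhx1* did not.

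In ESC, 0 of the 8 genes passed the test in Sp1ΔDBD/ΔDBD cells (0 at an unadjusted p under 0.05), where 6.06% of all genes did, and 1 did in Sp3-/- cells, where 11.3% of all genes did (limma). The gene was *Gsc*, with 0.213 and 0.285 FPKM in Sp3-/- ESC against 0 in both WT samples, a level far below that in Flk1+ cells of any genotype. Its adjusted p of 0.0448 (limma) became 0.705 with a pseudocount of 1 and 0.961 when GC content and length were corrected for, and the call was also lost when any of the 4 samples was left out. *Lefty2* had 118 and 136 FPKM in Sp1ΔDBD/ΔDBD and 105 and 99.8 FPKM in Sp3-/- ESC against 70.9 and 60.3 in WT. Both mutants lay above WT without overlap, with limma adjusted p-values of 0.359 and 0.507. *Tdgf1* had 181 and 218 FPKM in Sp1ΔDBD/ΔDBD and 253 and 249.1 FPKM in Sp3-/- ESC, all below the 275 and 344 FPKM of WT (limma adjusted p = 0.538 and 0.789). *Nodal* had 24.6 and 26.5 FPKM in Sp1ΔDBD/ΔDBD ESC, which overlapped WT, and 34.0 and 34.3 FPKM in Sp3-/- ESC, above WT (limma adjusted p = 0.601). *Lefty1* had 68.6 and 43.7 FPKM in Sp1ΔDBD/ΔDBD and 66.2 and 68.8 FPKM in Sp3-/- ESC.

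In the sorted populations of blast culture, 0 of the 8 genes passed the test in either mutant. In Sp1ΔDBD/ΔDBD cells the share of all genes that passed was 10% for HE1, 9.67% for HE2 and 8.78% for progenitors, and in Sp3-/- cells it was 10.9%, 13.8% and 8.65% (limma). At an unadjusted p under 0.05 the count of members was 1 in Sp3-/- HE2 and 0 in the other 5 comparisons. The gene was *Eomes*, which had 0.603 and 0.458 FPKM in Sp3-/- HE2 against 0.186 and 0.248 in WT HE2 (limma adjusted p = 0.152). With most of the 8 genes at or near 0 in these cells, a difference was hardly detectable. Of the 19 other pathway genes with values, 3 passed the test in Sp3-/- HE1, 3 in Sp3-/- HE2, and 1 each in Sp3-/- progenitors and in the 3 Sp1ΔDBD/ΔDBD populations, beside the shares of all genes given above, and the rest did not pass. *Cfc1* had 0.80 and 0.699 FPKM in Sp3-/- HE1 and was at or near 0 in WT HE1 (limma adjusted p = 0.000105). *Foxh1*, the Smad partner, rose in Sp3-/- HE1 from 17.4 and 13.8 to 33.8 and 33.0 FPKM, a log2 fold change of 1.10 (limma adjusted p = 0.0141), and in Sp3-/- HE2 from 16.3 and 9.67 to 25.9 and 33.8 FPKM (limma adjusted p = 0.00639). *Skil*, a repressor of Smad signalling, fell in Sp3-/- HE2 from 28.2 and 28.6 to 10.7 and 6.51 FPKM, a log2 fold change of -1.75 (limma adjusted p = 9.54e-05).

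**Figure D4:**
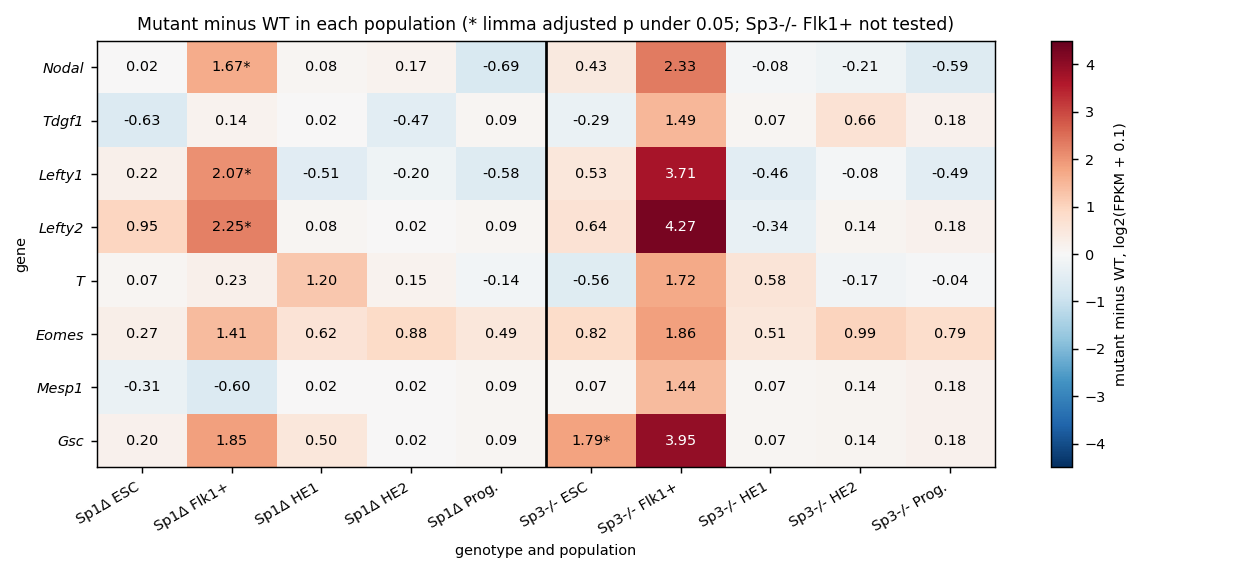
Difference of each mutant from WT in each population for the 8 genes, in log2(FPKM + 0.1), as colour and number, with genes in rows and genotype and population in columns (Sp1Δ is Sp1ΔDBD/ΔDBD, n = 2 per group). Asterisks mark a limma adjusted p under 0.05, and the Sp3-/- Flk1+ column was not tested. The values over 2 are those of *Lefty1* and *Lefty2* in Sp1ΔDBD/ΔDBD Flk1+ cells and of *Nodal*, *Lefty1*, *Lefty2* and *Gsc* in Sp3-/- Flk1+ cells.

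Whether the effect of a mutation differed from that in ESC was tested for 7 combinations. In each, 0 of the 8 genes passed (limma). For Sp1ΔDBD/ΔDBD the share of all genes that passed was 1.74% with Flk1+ cells, 3.99% with HE1, 2.62% with HE2 and 3.15% with progenitors. For Sp3-/- it was 2.16% with HE1, 0.544% with HE2 and 1.34% with progenitors. At an unadjusted p under 0.05 the counts were 2 for Sp1ΔDBD/ΔDBD in Flk1+ cells, namely *Nodal* and *Lefty1*, 1 for Sp3-/- in HE1 and 1 for Sp3-/- in HE2, both *Gsc*, and 0 in the other 4. The rise of *Nodal* in Sp1ΔDBD/ΔDBD Flk1+ cells exceeded that in ESC by 1.65 on the log2 scale (standard error 0.596, limma adjusted p = 0.197), and was thus not shown to differ from the effect in ESC.

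Likeness of pattern was measured as Pearson's r over the 15 group means of log2(FPKM + 0.1), as a description. All these values share the contrast between the populations in which the genes are on and those in which they are off. *Nodal* was most like *Lefty1* among the 8 genes (r = 0.994), and among other genes it was most like *Slc27a2* (0.989), *4930526L06Rik* and *Platr10*. The genes most like *Lefty1* were *Platr10* (0.995), *Ooep* and *Slc27a2*, and those most like *Lefty2* were *Igfbpl1* (0.996), *Kis2* and *Zyg11a*. *Lefty2* and *Tdgf1* were closer to each other (r = 0.949) than to the other 6 genes. *Tdgf1* was most like *Ybx2* (0.991), *Acsl6* and *Crabp1*. Among the transcription factors, *Eomes* was the nearest of the 8 genes to *Mesp1* (r = 0.976), *T* (0.968) and *Gsc* (0.963). Its nearest other genes were *Fgf8* (0.984), *Ntm* and *Nxph4*. *Gsc* was most like *Nxph4* (0.980), *Cdh20* and *Col19a1*, *T* most like *Cacna1g* (0.983), *Ptpru* and *H2-Q7*, and *Mesp1* most like *Erich2* (0.996), *Syndig1l* and *Edn3*.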

How the data were processed

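Total RNA of 2 biological replicates per group was made into stranded, ribosome-depleted libraries and sequenced as paired ends. The authors trimmed the reads, aligned them to mm10 with HISAT2 2.1.0, calculated FPKM values with StringTie (1.3.3 in the submitters' processing notes), retained genes that exceeded 1 FPKM in any sample and applied quantile normalisation. The deposited FPKM values are on a linear scale. They come without counts, so the depth is unknown and errors are taken from the replicates. Quantile normalisation gives the lowest genes of a sample a shared small value (0 to 0.0234 FPKM), so levels below 0.1 FPKM were treated as at or near 0 and given no ratio. Where a log2 fold change is shown for such a gene, its size depends on the pseudocount.

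The program limma 3.58.1 under R 4.3.3 was run on log2(FPKM + 0.1) of the 14525 genes above 1 FPKM in at least 1 sample, in a single fit of 15 group means over 30 samples with an intensity trend (15 residual and 3.92 prior degrees of freedom). P-values are two-sided and Benjamini-Hochberg adjusted within each comparison, with calls at 0.05. With 2 samples a group, the smallest p of an exact permutation test is 0.333. Mutants were set against WT population by population (9 tested comparisons), adjacent WT populations with each other (4), and mutant effects with those in ESC (7). On simulated data of 14525 genes made for Sp1ΔDBD/ΔDBD against WT HE1, with 200 genes shifted by 2 log2 units, limma found 81.5% of these, with 4.12% false calls, and called 0 genes in 9 comparisons without shifts. The simulated samples varied independently and with the same spread of a gene in every group. In the data same-numbered WT and Sp1ΔDBD/ΔDBD samples deviated together, and the Sp1ΔDBD/ΔDBD Flk1+ replicates lay far apart for several members. These rates therefore cannot be carried over to the calls in those cells. Groups were taken from the deposited labels.

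The members and lists were chosen with earlier results of these data known. Named are all members, the targeted genes, in a comparison at most 2 genes of each list with the largest change among those called without overlap between the samples, and the 3 genes most like each member. A gene of the pathway list is not reported here. Other genes carry the remark that they were chosen after their values were seen. Alternatives were a pseudocount of 1, no filter, a mean above 1 FPKM, no trend, correlated samples, a replicate block, a correction for GC content and length (GENCODE M21), separate fits and leaving out each sample. Python 3.11.15, numpy 2.4.6, pandas 2.3.3 and matplotlib 3.10.9 were used.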

Additional observations from a re-analysis of the deposited data

Results flagged for a closer look

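*Tdgf1* lay on opposite sides of WT in Sp3-/- ESC and Sp3-/- Flk1+ cells. Its log2 fold change was -0.29 in ESC, where both Sp3-/- samples were below both WT samples, and 1.49 in Flk1+ cells, where both were above. This difference was not tested, because the Flk1+ values chose the gene, and the decrease in ESC did not pass the test (limma adjusted p = 0.789).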

How the results depend on the processing

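The counts of members called were 4 in mutants against WT, 14 in the WT steps and 0 in the differences from ESC. The first fell to 2 with correlated same-numbered samples of a genotype (estimated correlation 0.173) and to 1 with each population fitted alone. When single samples were left out it ran from 0 to 5, the WT steps from 13 to 14, and the differences from ESC from 0 to 3. The 3 calls of the last were *Gsc*, *Lefty1* and *Lefty2* without Sp1ΔDBD/ΔDBD Flk1+ replicate 2. For samples outside a comparison, these changes come through the shared estimate of spread. With the replicate number as a block, 5 members were called in mutants against WT, with *Gsc* in Sp1ΔDBD/ΔDBD Flk1+ cells gained (limma adjusted p = 0.028), and 14 in the WT steps, where *Tdgf1* from ESC to Flk1+ cells was lost (limma adjusted p = 0.0803) and *Nodal* from HE2 to progenitor cells was gained. Between same-numbered Sp1ΔDBD/ΔDBD and WT Flk1+ samples *T* was higher and *Mesp1* lower in both, without passing with the block (limma adjusted p = 0.909 and 0.368). Same-numbered WT and Sp1ΔDBD/ΔDBD samples deviated together (correlations across genes of 0.233 to 0.471), and WT and Sp3-/- samples less so (0.00365 to 0.2), and as the labels give the numbers no meaning, the samples were not treated as paired. The log2 fold changes from Flk1+ cells to HE1 kept their side of the threshold under all 88 alternatives, those from ESC to Flk1+ cells under 86 of 88, and those of Sp1ΔDBD/ΔDBD Flk1+ cells under 78 of 96. No called value turned its direction. In Sp3-/- Flk1+ cells, 43 of 48 alternative values moved by less than the spread between replicates. Without Sp1ΔDBD/ΔDBD Flk1+ replicate 1, an alternative added after seeing the data, the other pathway genes called fell from 2 to 1 and the other streak genes from 3 to 1. The cause of these changes was not tested.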
